A study of Mus musculus with 12 samples.

Results

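Prostaglandins, thromboxane and leukotrienes are short-lived lipid messengers made from arachidonic acid, and the genes of their synthesis were followed in alveolar macrophages, the phagocytes that live in the airspaces of the lung. The genes were chosen by symbol, and all 10 were among the 55291 symbols of the deposited table. They are Pla2g4a, Ptgs1, Ptgs2, Ptges, Tbxas1, Alox5, Alox5ap, Lta4h, Ltc4s and Alox15. The cells had been flow-sorted from the lungs of female C57BL6/NJ mice aged 8 to 11 weeks, of which 6 had been exposed to 0.8 ppm ozone and 6 to filtered air. Mice were exposed on 4 days in a row, 4 h each day, and killed 3 days after the last exposure. Each of 2 flow-sort batches held 3 mice of each group. The series asks which macrophage transcripts differ when the lung has become tolerant to ozone.

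As background, cytosolic phospholipase A2 (Pla2g4a) frees arachidonic acid from membrane phospholipid, and the acid then enters one of several branches. The cyclooxygenases Ptgs1 and Ptgs2 turn it into prostaglandin H2, which Ptges converts to prostaglandin E2 and Tbxas1 to thromboxane A2. The lipoxygenase Alox5, helped by the membrane protein FLAP (Alox5ap), makes leukotriene A4, which Lta4h converts to the neutrophil attractant leukotriene B4 and Ltc4s to the cysteinyl leukotriene C4; Alox15 makes other hydroxylated fatty acids. Ptgs1 is usually described as the constitutive cyclooxygenase and Ptgs2 as the one induced by inflammatory signals, and alveolar macrophages are a known source of leukotriene B4, thromboxane and prostaglandin E2 in the lung.

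Expression is given as a variance-stabilized level on a log2 scale with the filtered-air mean of each gene set to 0. How abundant one gene is against another can therefore not be read from it. All 12 mice lay above the shared level that marks no read for all 10 genes, and also for all 15 listed alveolar macrophage markers, Siglecf, Marco and Pparg among them. Of these 15 markers 3 passed the test used below (limma, adjusted p under 0.05), beside 4.25% of all genes: Car4 was higher after ozone by 0.32, and Krt79 and Ear1 differed by -0.35 and -0.28. In the 12 fits that left out 1 mouse, Krt79 kept its call in 12, but Car4 and Ear1 each kept theirs in only 4. At an unadjusted p under 0.05 there were 7 of the 15 markers, beside 16.7% of all genes, and the median difference of the 15 was -0.011. Every listed marker of monocytes (6), interstitial macrophages (7), epithelium (8), endothelium (6) and lymphocytes (7) also lay above the level of no read in all 12 mice. Reads in every mouse therefore do not tell the cell types apart. The total number of reads is unknown; the size of 1 read in the low values gave relative depths of 0.899 to 1.17 in filtered air and 0.871 to 1.22 after ozone. RNA integrity numbers ran from 8.9 to 9.7 in filtered air and from 9.2 to 9.7 after ozone. In bulk samples more RNA per cell and more cells that express a gene cannot be told apart.

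Of the 10 synthesis genes, 1 was higher after ozone, Ptgs1, and 0 were lower (limma, adjusted p under 0.05). Among all 19633 genes tested, 4.25% passed this threshold, 2.41% with a higher and 1.84% with a lower value after ozone, so a single call among 10 says nothing of the genes as a list. The second cyclooxygenase, Ptgs2, had the next largest difference and missed the threshold. The 5 genes of the lipoxygenase and leukotriene branches all had lower means after ozone, with differences from -0.094 to -0.041, and none of them passed. The median difference was -0.041 over the 10 genes and -0.0033 over all genes tested.

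**Figure D1:**
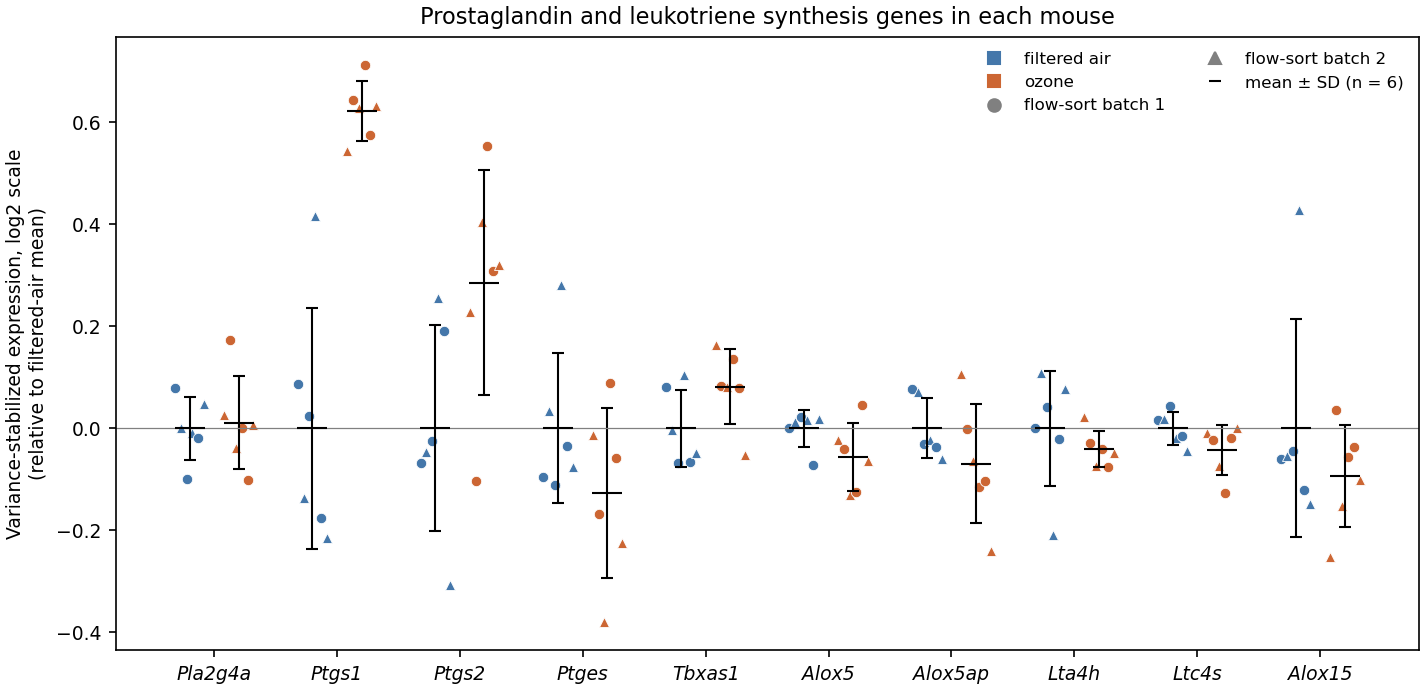
Expression of the 10 synthesis genes in each mouse on a log2 scale relative to the filtered-air mean (vertical axis), with filtered air in blue, ozone in orange, circles for flow-sort batch 1, triangles for batch 2, and bars for the mean ± SD of 6 mice. For Ptgs1 every ozone mouse, from 0.54 to 0.71, lies above every filtered-air mouse, the highest of which is at 0.42; for the other genes the groups overlap.

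Ptgs1 encodes cyclooxygenase-1 and lies on the plus strand of chromosome 2, chr2:36230426-36252272 (GRCm38, GENCODE M21). Its value was -0.21 in the lowest, -0.057 at the median and 0.42 in the highest filtered-air mouse, against 0.54, 0.63 and 0.71 after ozone. The groups did not overlap, which held for 3.53% of all genes tested. The ozone mice lay close together, with an SD of 0.059 (n = 6), while the filtered-air mice were spread over an SD of 0.24 (n = 6). Filtered-air mouse 4 was the one at 0.42, and the next filtered-air mouse was at 0.087. The gene Gm43621, which overlaps Ptgs1 on the other strand, lay above the level of no read in 3 of 12 mice.

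Ptgs1 rose by 0.62 on the log2 scale (SE 0.0878, 95% interval 0.43 to 0.81, adjusted p = 0.00173 in limma). It ranked number 55 by p-value and number 18 by size of difference among the 19633 genes. The rise was 0.67 in flow-sort batch 1 and 0.58 in batch 2, and the interaction of ozone with batch had an adjusted p of 1.00 in limma (unadjusted p = 0.642). With batch 2 alone, 3 mice against 3, the difference did not pass (limma, adjusted p = 0.254), and with batch 1 alone it did (limma, adjusted p = 0.0179). Read as a plain log2 value, a difference of 0.62 is 1.54-fold, with a lower 95% limit of 1.35-fold; the deposited scale flattens changes in genes with few reads.

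Ptgs2, which encodes cyclooxygenase-2, lies on the plus strand of chromosome 1, chr1:150100031-150108227. In filtered air its lowest, median and highest values were -0.31, -0.036 and 0.26, and after ozone they were -0.10, 0.31 and 0.55. Of the 6 ozone mice, 4 lay above every filtered-air mouse, and ozone mouse 2 was the lowest at -0.10. The difference was 0.29 (SE 0.106, 95% interval 0.059 to 0.51) and did not pass (limma, adjusted p = 0.169, unadjusted p = 0.0172). An unadjusted p under 0.05 was found in 16.7% of all genes. Without ozone mouse 2 the difference was 0.37 and passed (limma, adjusted p = 0.0376). The SD of Ptgs2 was 0.20 in filtered air and 0.22 after ozone (n = 6 each), so its ozone mice were not as close together as those of Ptgs1.

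**Figure D2:**
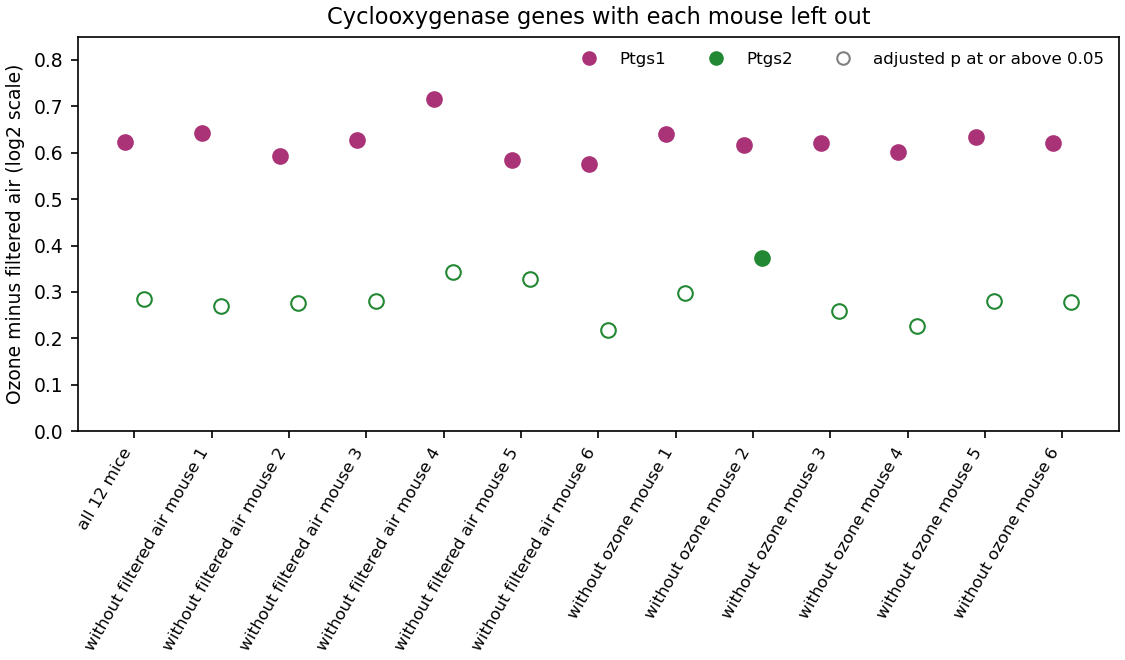
Difference between ozone and filtered air on the log2 scale (vertical axis) for Ptgs1 (purple) and Ptgs2 (green) with all 12 mice and with each mouse left out in turn; filled points have an adjusted p under 0.05. Ptgs1 stays filled throughout, between 0.57 and 0.72, while Ptgs2 lies between 0.22 and 0.37 and is filled only without ozone mouse 2.

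The promoters of the cyclooxygenase genes are shown because the genes encode enzymes for the same reaction and sit under different upstream sequence. The 250 bases before each annotated start are from RefSeq (GRCm38.p6), 5′ to 3′ on the gene's strand, chr2:36230176-36230425 for Ptgs1 and chr1:150099781-150100030 for Ptgs2. Capitals mark matches to the motifs searched on both strands.
Ptgs1: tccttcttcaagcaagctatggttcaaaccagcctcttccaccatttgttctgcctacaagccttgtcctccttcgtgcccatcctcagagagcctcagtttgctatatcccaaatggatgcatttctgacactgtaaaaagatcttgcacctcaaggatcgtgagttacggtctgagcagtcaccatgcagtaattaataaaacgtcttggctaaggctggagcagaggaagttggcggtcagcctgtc
Ptgs2: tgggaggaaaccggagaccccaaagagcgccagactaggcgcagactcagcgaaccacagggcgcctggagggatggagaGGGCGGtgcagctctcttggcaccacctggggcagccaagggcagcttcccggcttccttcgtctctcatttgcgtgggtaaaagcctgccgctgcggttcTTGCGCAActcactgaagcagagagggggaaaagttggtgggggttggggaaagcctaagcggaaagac
The motifs were the C/EBP palindrome TTGCGCAA, the E-box CACGTG, the core CGTCA of the cyclic AMP response element, the AP-1 site TGANTCA, the GC box GGGCGG and the TATA box TATAAA, searched from 250 bases before to 50 after the start. The Ptgs2 window held TTGCGCAA at positions -69 to -62, GGGCGG at -170 to -165 and, past the annotated start and so not printed, the overlapping CGTCA and CACGTG at positions 14 to 18 and 17 to 22. TTGCGCAA occurred in 0.183% of 32851 promoters of this length, CACGTG in 7.15%, CGTCA in 20.8% and GGGCGG in 35.7%. The Ptgs1 window held none of the 6 motifs; TGANTCA occurred in 7.81% and TATAAA in 13.6% of promoters. These are matches of letters and were not tested as binding sites.

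Among the enzymes downstream of the cyclooxygenases, neither passed the test. Tbxas1, thromboxane A synthase (chr6:38875404-39084585, plus strand), had a lowest, median and highest value of -0.068, -0.025 and 0.11 in filtered air and of -0.052, 0.082 and 0.16 after ozone. The groups overlapped, although 5 of 6 ozone mice were above the filtered-air median, and the difference was 0.082 (SE 0.0461, 95% interval -0.017 to 0.18, limma adjusted p = 0.416). The gene Hipk2 overlaps Tbxas1 on the other strand and differed by 0.075 (SE 0.0902, limma adjusted p = 0.759). Although the library kit keeps strand, use of strand in counting is not given in the sources used here.

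Ptges, the microsomal prostaglandin E synthase (chr2:30889471-30929863, minus strand), ran from -0.11 through a median of -0.055 to 0.28 in filtered air and from -0.38 through -0.11 to 0.088 after ozone. Its difference was -0.13 (SE 0.0812, 95% interval -0.30 to 0.048, limma adjusted p = 0.496), and it was -0.063 without filtered-air mouse 4 and -0.069 without ozone mouse 3. Filtered-air mouse 4 was the highest mouse of all, and 3 ozone mice were below every filtered-air mouse. By batch the difference was 0.034 in batch 1 and -0.29 in batch 2; the interaction had an unadjusted p of 0.0451 and an adjusted p of 1.00 in limma, with 2.6% of genes at an unadjusted p under 0.05 and 0% at an adjusted one. The sign of the Ptges difference was thus not the same in the batches. Each batch set 3 mice against 3, and neither difference passed (limma, adjusted p = 0.910 in batch 1 and 0.498 in batch 2).

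Upstream of all branches, Pla2g4a (chr1:149829618-149961290, minus strand) had values from -0.099 to 0.079 in filtered air, with a median of -0.0037, and from -0.10 to 0.17 after ozone, with a median of 0.0041. Its difference was 0.011 (SE 0.0470, 95% interval -0.089 to 0.11, limma adjusted p = 0.946), the smallest in size of the 10 genes. Its sign turned without filtered-air mouse 3 (-0.011) and without ozone mouse 2 (-0.025).

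**Figure D3:**
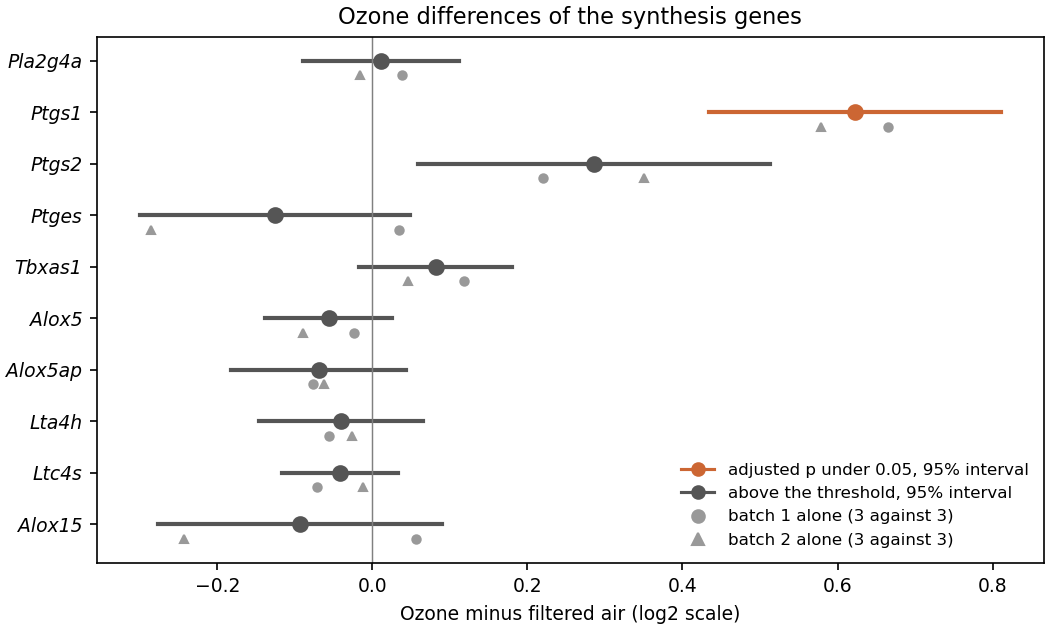
Difference between ozone and filtered air on the log2 scale (horizontal axis) for each of the 10 genes with its 95% interval, orange where the adjusted p is under 0.05, and the differences within flow-sort batches 1 and 2 as grey circles and triangles. Ptgs1 stands at 0.62; the intervals of all genes other than Ptgs1 and Ptgs2 include 0.

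In the leukotriene branch, Alox5, the lipoxygenase that starts it (chr6:116410077-116461178, minus strand), had values from -0.071 through a median of 0.015 to 0.023 in filtered air and from -0.13 through -0.052 to 0.046 after ozone. Except for mouse 5, at -0.071, the filtered-air mice lay within a narrow band from 0.00020 to 0.023, and 5 of 6 ozone mice were below 0. The difference was -0.056 (SE 0.0385, 95% interval -0.14 to 0.026, limma adjusted p = 0.527).

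Alox5ap, whose product FLAP presents arachidonic acid to that lipoxygenase (chr5:149264767-149288153, plus strand), ran from -0.060 through -0.026 to 0.076 in filtered air. After ozone it ran from -0.24 through -0.083 to 0.11, so that 4 ozone mice were below every filtered-air mouse while ozone mouse 1 was above them all. Its difference was -0.069 (SE 0.0530, 95% interval -0.18 to 0.044, limma adjusted p = 0.587), and it was -0.031 without ozone mouse 6 and -0.11 without ozone mouse 1.

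Lta4h, the hydrolase that makes leukotriene B4 (chr10:93453411-93484875, plus strand), had values of -0.21, 0.021 and 0.11 at the lowest, median and highest filtered-air mouse and of -0.075, -0.045 and 0.022 after ozone. All ozone mice lay inside the filtered-air range. The difference was -0.041 (SE 0.0494, 95% interval -0.15 to 0.065, limma adjusted p = 0.760). Filtered-air mouse 4 was the lowest, and without it the difference was -0.087 (limma adjusted p = 0.247). It was -0.017 without filtered-air mouse 2 (limma adjusted p = 0.923) and -0.024 without filtered-air mouse 6 (limma adjusted p = 0.890).

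Ltc4s, the glutathione-conjugating synthase of leukotriene C4 (chr11:50236461-50238616, minus strand), ran from -0.045 through 0.00050 to 0.043 in filtered air and from -0.13 through -0.021 to 0.00022 after ozone. Of the ozone mice, 2 were below every filtered-air mouse and the others lay within their range. Its difference was -0.042 (SE 0.0348, 95% interval -0.12 to 0.033, limma adjusted p = 0.629), with the smallest SE of the 10 genes, and it was -0.023 without ozone mouse 4.

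Alox15, the 12/15-lipoxygenase of mouse macrophages (chr11:70344152-70352031, minus strand), had values of -0.15, -0.056 and 0.43 in filtered air and of -0.25, -0.078 and 0.035 after ozone. Filtered-air mouse 4 carried the value of 0.43, and the other 5 were all below 0. The difference of -0.094 (SE 0.0855, 95% interval -0.28 to 0.089, limma adjusted p = 0.666) came to 0.0012 without that mouse (limma adjusted p = 0.995). The sign of the Alox15 difference therefore rested on 1 mouse, and it was also positive in batch 1 alone (0.056).

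Filtered-air mouse 4 was the highest of its group in 5 of the 10 genes, Ptgs1, Ptgs2, Ptges, Tbxas1 and Alox15, and the lowest in Lta4h. Filtered-air mouse 6 was the lowest in 5, Ptgs1, Ptgs2, Alox5ap, Ltc4s and Alox15. Mouse 4 also had the lowest RNA integrity number of the series, 8.9, and the highest mean of its group in 6 of 9 lists of markers of other cells (neutrophils, eosinophils with mast cells and basophils, platelets, monocytes, interstitial macrophages, epithelium, endothelium, fibroblasts and lymphocytes). Among the filtered-air mice, the mean of the 15 alveolar macrophage markers was lowest in mouse 4, at -0.062. Without this mouse Ptgs1 rose by 0.72, more than with it.

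The marker lists were also compared between the groups, because other lung cells express cyclooxygenases and lipoxygenases. In each of the 9 lists the group ranges of the mean level overlapped, and of 52 markers tested (64 listed) 1 passed, beside 4.25% of all genes; it was Epcam, which was lower after ozone by -0.55 (SE 0.0992, limma adjusted p = 0.00620). Of the 8 epithelial markers, Epcam among them, 3 were higher and 5 lower after ozone, with a median difference of -0.018. The mean of 5 platelet markers (6 listed, Gp1bb in too few mice) ran from -0.086 to 0.075 in filtered air and from -0.041 to 0.085 after ozone. The mean of the 7 interstitial macrophage markers ran from -0.27 to 0.26 and from -0.0080 to 0.28. Of these 7, 6 were higher after ozone and 0 passed (limma, adjusted p under 0.05), with 2 at an unadjusted p under 0.05, beside 4.25% and 16.7% of all genes; their median difference was 0.21, beside -0.0033 over all genes tested. The mean of 6 neutrophil markers (9 listed) ran from -0.13 to 0.24 and from -0.063 to 0.077; Camp was constant over all mice, and Ly6g and Ngp had reads in too few mice to be tested. Of 9 markers of eosinophils, mast cells and basophils 1 could be tested. The part of such cells in the Ptgs1 rise was not tested.

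The 3 tested genes whose values followed Ptgs1 most closely over the 12 mice were Lrg1 (Pearson r = 0.977), Msr1 (r = 0.975) and Tcn2 (r = 0.969). They were picked from 19633 genes for this likeness, so the correlations are a description only, and each includes the difference between the groups. Filtered-air mouse 4 was the highest of its group in each of these genes, as in Ptgs1, and the correlations include this mouse too. Lrg1 encodes a secreted leucine-rich glycoprotein, Msr1 a scavenger receptor and Tcn2 the vitamin B12 carrier transcobalamin.

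Beyond the 10 synthesis genes, 68 other genes of arachidonic acid release, lipid mediator synthesis, inactivation, transport and reception were listed, and 57 had reads in enough mice to be tested. Of these 57, 3 were higher and 1 was lower after ozone (limma, adjusted p under 0.05), or 4 in all, beside the 4.25% of all genes. Without filtered-air mouse 4 the number higher was 5, and without filtered-air mouse 1 or 5 the number lower was 2. Without the batch covariate 7 passed, 3 of them lower, and the fit with the replicate block gave the same counts. After quantile normalization 2 passed, and in either batch alone, 3 mice against 3, none of the 4 passed (limma, adjusted p from 0.102 to 0.438), with the direction kept in each. The median difference of the 57 was -0.0044, with 27 higher and 30 lower. Among the 57, 16 had an unadjusted p under 0.05 in limma, beside 16.7% of all genes. In 3 of the 57 the groups did not overlap, beside 3.53% of all genes. The genes that passed belong to different steps: a phospholipase, a reductase that inactivates eicosanoids, a prostacyclin receptor and a leukotriene dipeptidase.

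**Figure D4:**
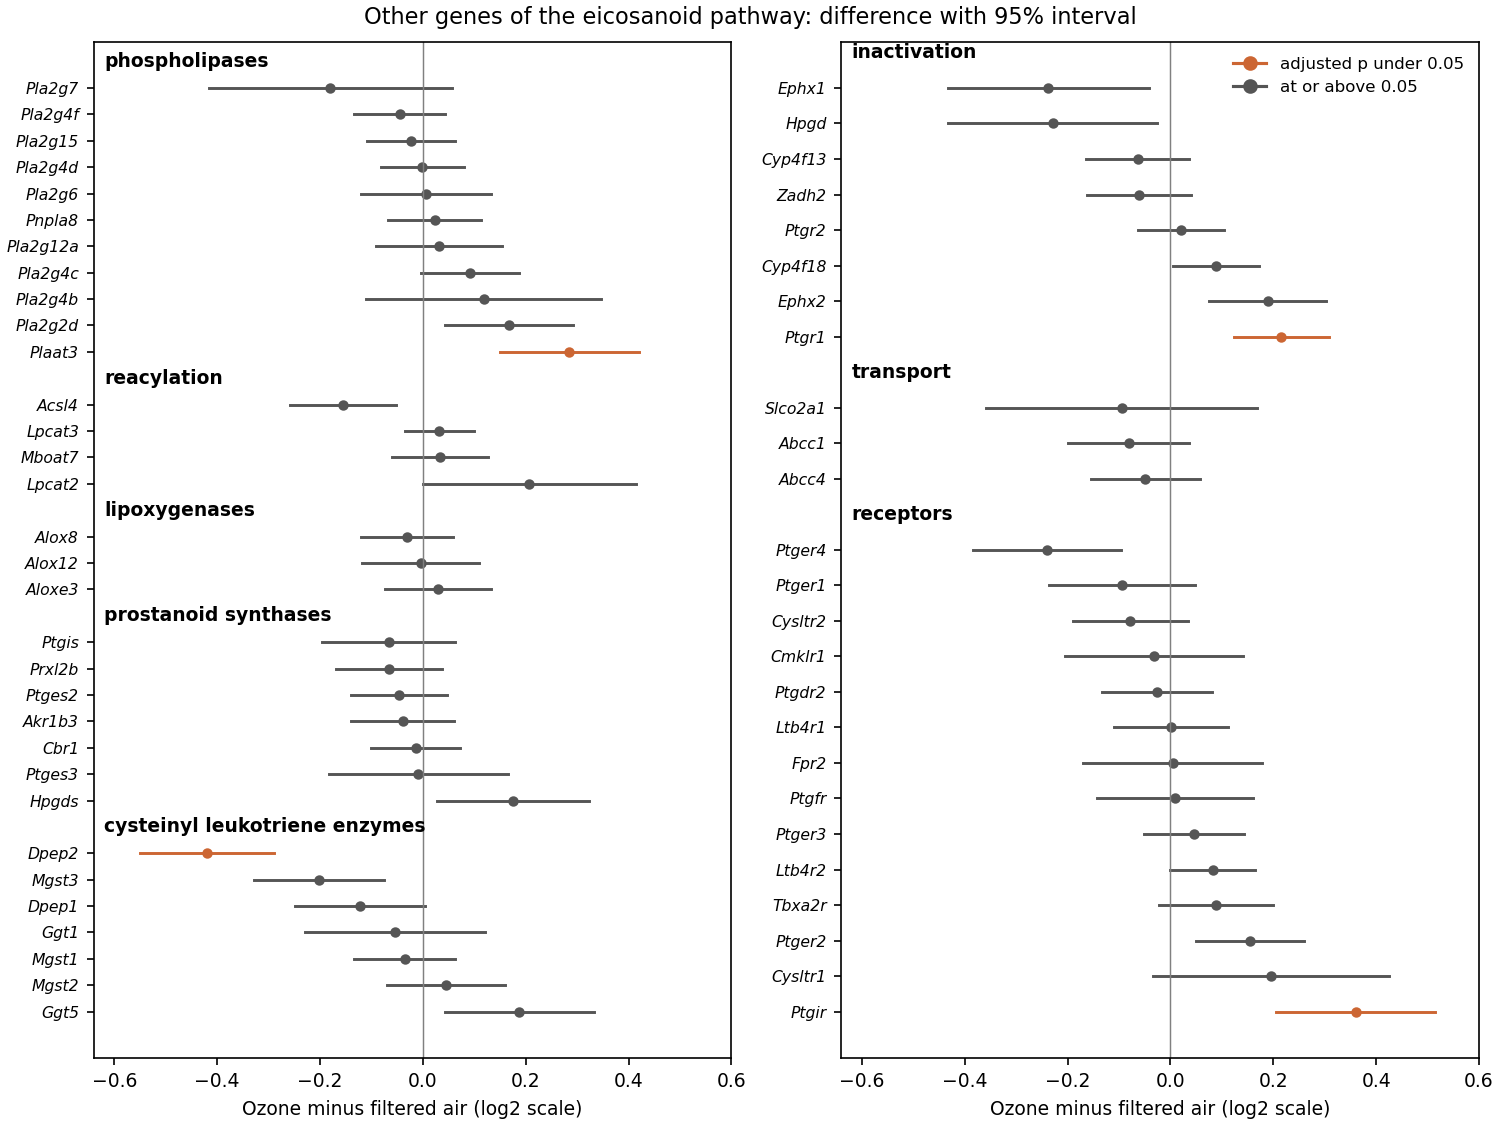
Difference between ozone and filtered air on the log2 scale (horizontal axis) with its 95% interval for the 57 other eicosanoid pathway genes, grouped by role, orange where the adjusted p is under 0.05. Plaat3, Ptgr1 and Ptgir lie to the right, between 0.22 and 0.36, and Dpep2 to the left at -0.42.

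Dpep2, a membrane dipeptidase that converts leukotriene D4 to leukotriene E4, had values of -0.14, -0.021 and 0.21 at the lowest, median and highest filtered-air mouse and of -0.54, -0.41 and -0.28 after ozone. The groups did not overlap, as in 3.53% of all genes tested, and Dpep2 fell by 0.42 (SE 0.0604, limma adjusted p = 0.00181). The annotation holds a pair of overlapping gene models of this name, one of which also overlaps Dpep2nb, and how reads were divided between them is not given in the sources used here. Among the 7 enzymes that make or trim cysteinyl leukotrienes Dpep2 was the one that passed, beside 4.25% of all genes. An unadjusted p under 0.05 in limma was found in 3 of the 7, beside 16.7% of all genes.

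Ptgir, the receptor for prostacyclin, ran from -0.069 through 0.00014 to 0.061 in filtered air and from 0.14 through 0.34 to 0.64 after ozone. All ozone mice were above all filtered-air mice, and groups without overlap were found in 3.53% of all genes tested. The spread of the ozone mice was wider, with an SD of 0.19 against 0.052 (n = 6 each). Ptgir rose by 0.36 (SE 0.0719, limma adjusted p = 0.0113). Of the 14 receptors tested it was the one that passed, beside 4.25% of all genes. An unadjusted p under 0.05 in limma was found in 3 of the 14, beside 16.7% of all genes. Ptger4, a prostaglandin E2 receptor, was below 0 in 6 of 6 ozone mice, with values of -0.43, -0.21 and -0.12 at the lowest, median and highest against -0.22, 0.034 and 0.15 in filtered air; its difference of -0.24 (SE 0.0671) did not pass (limma, adjusted p = 0.0609) and passed without filtered-air mouse 1, at -0.29 (limma, adjusted p = 0.0221), and, at the same -0.24, without the batch covariate (limma, adjusted p = 0.0398).

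Ptgr1, prostaglandin reductase 1, which inactivates leukotriene B4 and prostaglandins, had values of -0.068, -0.014 and 0.10 in filtered air and of 0.14, 0.21 and 0.31 after ozone. Its groups again did not overlap, as in 3.53% of all genes tested. Ptgr1 rose by 0.22 (SE 0.0429, limma adjusted p = 0.0112), 1 of 8 inactivating enzymes tested to pass, beside 4.25% of all genes. An unadjusted p under 0.05 in limma was found in 5 of the 8, beside 16.7% of all genes. After quantile normalization the Ptgr1 difference was 0.19 and the call was lost (limma adjusted p = 0.102).

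Plaat3, a phospholipase and acyltransferase listed under its older name Pla2g16, had values of -0.23, 0.022 and 0.16 in filtered air and of 0.16, 0.31 and 0.41 after ozone, with 5 of 6 ozone mice above every filtered-air mouse. It rose by 0.28 (SE 0.0633, limma adjusted p = 0.0201), and the call was lost without ozone mouse 3 (0.26, limma adjusted p = 0.0537) and after quantile normalization (0.25, limma adjusted p = 0.138). Of 11 phospholipases tested it was the one that passed, and 2 had an unadjusted p under 0.05 in limma. Of the 4 enzymes that return arachidonic acid to phospholipid, 7 other prostanoid synthases, 3 other lipoxygenases and 3 transporters, 0 passed (limma, adjusted p under 0.05), with 2, 1, 0 and 0 at an unadjusted p under 0.05; over all genes the shares were 4.25% and 16.7%.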

How the data were processed

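Alveolar macrophage RNA was measured in 12 mice, 6 per group, and the groups were taken from the labels' titles. The submitters' processing notes name cutadapt, STAR 2.7.7a, Salmon 1.5.2, DESeq2 1.26.0, R 3.6.0, limma 3.42.2 and the build mm10, without their roles. Per the file headers and name, the authors deposited log2-scale values, variance-stabilized and batch-corrected, for 55291 symbols. In these values the filtered-air mean and the difference between the flow-sort batches were 0 in every gene, and 0 columns were left unmatched. Within a batch, mice with no read share the lowest value, and the next steps above the first lay at 1.41 and 1.73 times it, as on a square-root-like curve; the first step gave relative depth. A mouse that alone lacks reads in its batch is not seen this way.

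Genes were kept where at least 6 of 12 mice lay above that lowest value, which left 19633. Ozone was compared with filtered air with limma 3.58.1 in R 4.3.3, without a variance trend, with flow-sort batch as a covariate, two-sided, with Benjamini-Hochberg adjustment over all genes kept and a threshold of 0.05. The fit was tested on simulated data. The 10 genes and the lists were chosen with earlier results of these data known. Named were the 10 genes, pathway genes that passed and, as these were fewer than 5, the next by p-value; Epcam, Car4, Krt79 and Ear1 were added after their values were seen. Listed names not in the table were matched through RefSeq synonyms. Coordinates are from GENCODE M21 (GRCm38), promoters from RefSeq, where both genes looked up were found. Alternatives covered the filter, the prior variance, normalization, covariates, batches and single mice. No mouse was dropped from the values in the report unless stated.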

Additional observations from a re-analysis of the deposited data

Results flagged for a closer look

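In 3 of 30 combinations of gene and group examined, a mouse stood far from the others of its group (Dixon's ratio above 0.625, the 95% value for 6 samples); chance flags about 1 group in 20. Alox15 was at 0.43 in filtered-air mouse 4 (ratio 0.817). Ptges was at 0.28 in the same mouse (ratio 0.633). Alox5 was at -0.071 in filtered-air mouse 5 as the lowest of its group (ratio 0.762).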

How the results depend on the processing

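Of 220 values for the 10 genes under other settings, 212 kept direction and call. Settings that changed the filter, the prior variance, the batch covariate or the replicate block left each difference as it was, so direction could not turn there. For genes other than Ptgs1 a kept call means only that the adjusted p stayed above the threshold. Ptgs1 kept its call in all 12 fits that left out 1 mouse (0.57 to 0.72) and lost it in batch 2 alone (0.58), where 3 mice stood against 3. Signs turned for Pla2g4a in batch 2 (-0.015) and without filtered-air mouse 3 or ozone mouse 2 (-0.025 to 0.036 over single mice), for Alox15 in batch 1 (0.056) and without filtered-air mouse 4 (-0.13 to 0.0012 over single mice), and for Ptges in batch 1 (0.034); none of these passed, and the cause was not tested. Genes called numbered 834, 171 after quantile normalization, and 538 to 751 without single mice, the lowest without filtered-air mouse 1. They numbered 90 in batch 1 and 0 in batch 2, with 3 mice against 3 in each, and the cause of this gap was not tested. The 10 genes held 1 call, 0 in batch 2 and 1 to 2 without single mice. The other pathway genes held 4 calls (3 higher, 1 lower), 2 after quantile normalization (1 higher), 7 without the batch covariate (3 lower), 0 in batch 1 and in batch 2 (0 higher, 0 lower) and 3 to 6 without single mice (2 to 5 higher, 1 to 2 lower); 5 were higher without filtered-air mouse 4 and 2 lower without filtered-air mouse 1 or 5. Ptgr1 and Plaat3 lost their calls after quantile normalization (0.19 and 0.25). Same-numbered mice are different animals and were not treated as pairs. The correlation of their deviations nevertheless ran from -0.0026 to 0.28, over 0.1 in 4 of 6 numbers. Ozone mice 1, 2 and 4 correlated best with the filtered-air mouse of their own number. What same-numbered mice share was not tested. With the replicate block 7 other pathway genes passed, 3 of them lower, and 1 of the 10. The interaction with batch gave 0 calls among the 10 genes under every setting run. Only relative depth is known, and the abundance of a gene is not.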
